A study of Ovis aries with 8 samples.

Results

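The genes described here make up the DNA replication machinery and the supply of its nucleotides in pancreatic islets of near-term sheep fetuses. They are 33 genes, named by symbol for their known function and taken as the rows of the deposited table with exactly that symbol. Of these, 32 have a row among the 25000 rows of the table, and 31 reached the minimum mean of 1 FPKM at which 13252 genes were tested. MCM2 is not listed under its symbol and was not analysed here, and POLE stayed below the minimum. No tested member had a mean under that minimum in either group alone.

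The fetuses compared were all singletons of Columbia-Rambouillet crossbred ewes. The NE-Infused group held 4 fetuses, aged 137 to 139 days of gestation, given intravenous norepinephrine for 7 days at 1 µg/min on day 1, 2 µg/min on days 2 to 4 and 4 µg/min on days 5 to 7. The Saline-Control group held 4 fetuses, aged 139 to 140 days, given the diluent alone, saline with ascorbic acid. The labels name no genetic alteration in either group. Islets were picked by hand and RNA was sequenced, so each value is a mix of the cells in the picked tissue, and fewer cells of a type cannot be told apart from less RNA per cell. Values are FPKM as deposited, fragments per kilobase of a transcript relative to the size of the library. Differences between groups are of log2(FPKM + 1), NE-Infused minus Saline-Control, with the 95% interval from limma, and ± values are SDs over 4 animals.

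A cell copies its genome once per division in a fixed order. The origin recognition complex, CDC6 and CDT1 load the ring-shaped MCM helicase on DNA in G1, a step called licensing, and geminin (GMNN) blocks CDT1 afterwards. CDC45 and the GINS complex then turn the loaded ring into a working helicase, and primase, the polymerases, the sliding clamp PCNA and its loader RFC copy the strands. Ribonucleotide reductase, thymidylate synthase and thymidine kinase provide the deoxynucleotides. Many of these genes are transcribed by E2F factors at the start of S phase, whereas genes such as MKI67 and the mitotic kinesins peak later, towards division.

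Libraries differed by more than treatment. The animal numbers in the labels begin with 09 or 10, which the labels do not explain. NE-Infused 1, 3 and 4 and Saline-Control 2 are numbered 09, and NE-Infused 2 and Saline-Control 1, 3 and 4 are numbered 10. Summed FPKM ran from 773581 to 1075998 in NE-Infused animals and from 768021 to 1112624 in controls. By number it split without overlap, from 768021 to 796149 in animals numbered 10 and from 981583 to 1112624 in those numbered 09. Scale factors by the median of ratios between libraries ran only from 0.973 to 1.06. Any scaling between libraries before deposit was not tested. Low values moved in steps of 1 fragment, which put the depth of NE-Infused 1, 2 and 3 at 0.65, 1.01 and 0.73 times that of Saline-Control 1, and the depth of Saline-Control 3 and 4 at 1.17 and 1.08 times. No such step was shared with NE-Infused 4 or Saline-Control 2, whose depth is unknown. Islet endocrine markers summed to 7176 to 13161 FPKM in NE-Infused animals and 5066 to 8896 FPKM in controls, with 10 of 11 listed markers tested and IAPP listed at 0 in all 8 animals. INS and PPY are not listed under these symbols.

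No replication gene passed the test between the groups after correction for all genes tested. Limma called 0 of 31 members at an adjusted p under 0.05, and 0.0% of all 13252 tested genes passed that threshold. At an unadjusted p under 0.05, 2 of 31 members (6.45%) had a lower mean in NE-Infused animals and 0 a higher one, against 975 of all tested genes (7.36%) in either direction, 3.74% lower and 3.61% higher. Those 2 were TYMS and RRM2, both in nucleotide synthesis. The count was 5 without Saline-Control 2 and 4 without NE-Infused 2, and 2 without any other single animal. Over these omissions the count of all tested genes ran from 595 to 2201, so the member counts are not comparable with 7.36%. The median difference of the 31 members was -0.03, beside 0.02 for all tested genes, and 18 members (58.1%) had a lower mean, beside 47.4% of all tested genes. When every library was scaled to the same summed FPKM, the median of all tested genes moved to -0.12 and that of the members to -0.16, and 26 of the 31 then had a lower mean. Animals numbered 09 all had higher sums than those numbered 10, so this scaling lowered 09 against 10.

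**Figure D1:**
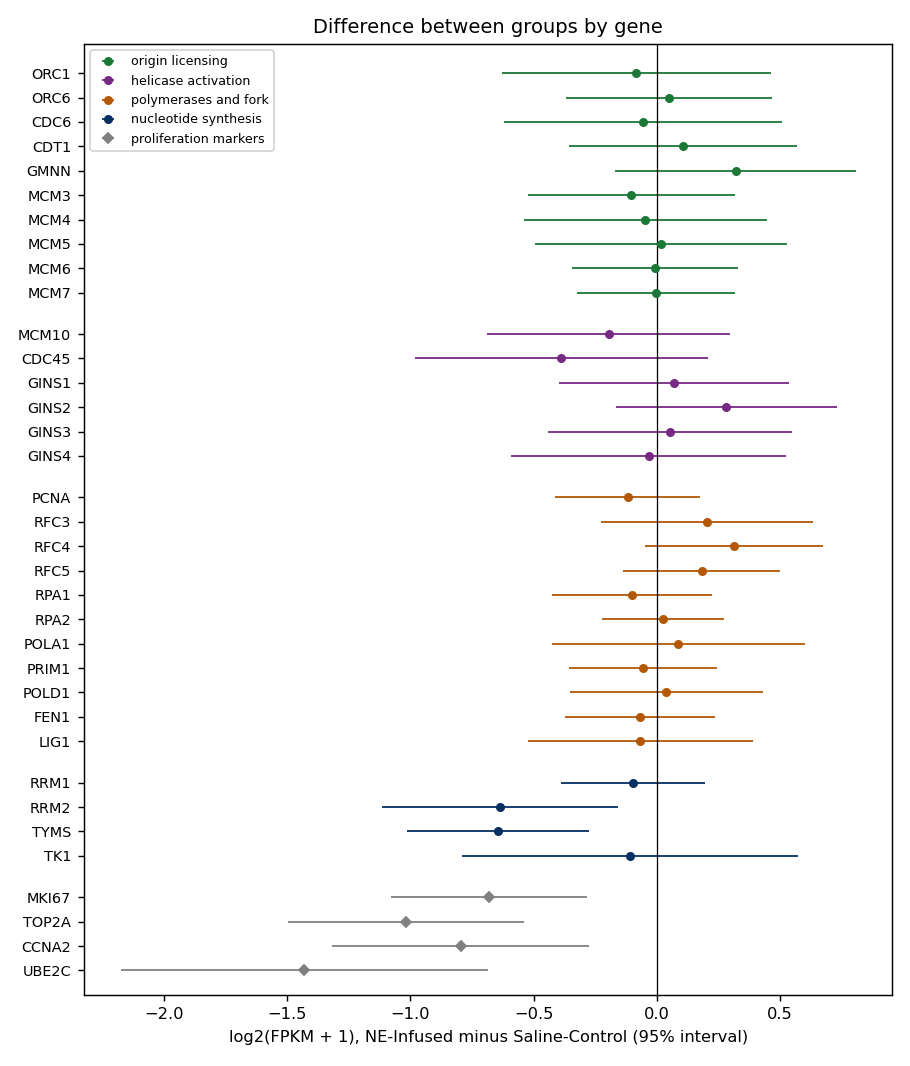
Difference in log2(FPKM + 1), NE-Infused minus Saline-Control, for the 31 tested replication genes and 4 proliferation markers; points are limma estimates, lines 95% intervals over 4 animals a group, colours the role of the gene. Only the intervals of RRM2 and TYMS among the replication genes lie entirely below 0, as do those of the 4 proliferation markers.

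The intervals give the size of change allowed by the model without covariates, for the deposited scaling. With gestational age in the model some estimates lay below these intervals, such as -1.05 for CDC45, -0.87 for TK1 and -0.45 for CDT1. For the 29 members other than TYMS and RRM2 every interval included 0, and all 29 lay within 1.0 on either side on the log2(FPKM + 1) scale. For genes of low FPKM the same bound stands for a larger change in FPKM itself. The lowest bound was -0.98 for CDC45 and the highest 0.81 for GMNN. A limit of 0.5 was kept by 10 of 31 members, among them PCNA, MCM6, MCM7, RPA1, RPA2 and RRM1. Smaller differences in the others were not detectable with 4 animals a group.

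All 4 members in nucleotide synthesis had lower means after norepinephrine, of which 2 had an unadjusted p under 0.05. Their median difference was -0.37, beside -0.01 for 10 licensing genes, 0.01 for 6 helicase activation genes and 0.03 for 11 polymerase and fork genes. The mean level of the 4 genes in log2(FPKM + 1) was 3.66, 3.43, 3.36 and 3.94 in NE-Infused animals 1 to 4, against 3.97, 3.99, 3.80 and 4.11 in controls 1 to 4. NE-Infused 4 lay inside the range of controls and the other NE-Infused animals lay below it. Split by number, the list difference came to -0.34 in 09 and -0.53 in 10, with 1 control in 09 and 1 NE-Infused animal in 10. RRM1 did not share this direction, at 0.06 in 09, 0.01 in 10 and 0.03 with the number prefix in the model.

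TYMS encodes thymidylate synthase, which makes thymidylate from deoxyuridylate (chromosome 23, 35544285 to 35888637 on Oar_v3.1). It stood at 25.2, 16.9, 18.1 and 21.1 FPKM in NE-Infused animals 1 to 4, and at 25.6, 32.3, 36.1 and 35.1 FPKM in controls 1 to 4. The groups did not overlap, though NE-Infused 1 and Saline-Control 1 were nearly equal. Group means were 20.3 ± 3.69 FPKM with norepinephrine and 32.3 ± 4.75 FPKM in controls. The log2 difference was -0.65 (interval -1.01 to -0.28, limma adjusted p = 0.498). TYMS ranked at 83 of 13252 genes by p, and it was the 1 member of 31 (3.23%) whose groups did not overlap, beside 4.23% of all tested genes (2.35% lower and 1.88% higher in NE-Infused animals). That count was 5 without Saline-Control 2, 3 without NE-Infused 4, and 2 without NE-Infused 2 or Saline-Control 3. With an animal left out, groups separate more easily. The share of all tested genes at each omission is not given here, so these counts are not comparable with 4.23%. Within number groups the difference was -0.58 in 09 and -0.88 in 10. The table gives TYMS a locus shared with 5 other rows, CLUL1 and COLEC12 among them, so its value may hold reads of neighbours.

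RRM2 encodes the small subunit of ribonucleotide reductase, the subunit whose level follows S phase (chromosome 3, 19185138 to 19191043). It stood at 5.11, 3.92, 3.47 and 7.02 FPKM in NE-Infused animals 1 to 4, against 9.83, 7.70, 6.53 and 7.84 FPKM in controls 1 to 4. The groups overlapped through NE-Infused 4, which exceeded Saline-Control 3. Group means were 4.88 ± 1.59 FPKM with norepinephrine and 7.98 ± 1.37 FPKM in controls, a log2 difference of -0.63 (interval -1.11 to -0.16, limma adjusted p = 0.574). Within number groups it was -0.53 in 09 and -0.87 in 10. With male fetuses only, 3 a group, its unadjusted limma p was no longer under 0.05. When scaled to equal library totals or by the median of ratios, the RRM2 groups no longer overlapped.

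RRM1, the large subunit of the same enzyme, which is long-lived in cycling cells, had a smaller difference. It stood at 33.5, 38.5, 29.8 and 34.2 FPKM in NE-Infused animals, against 37.7, 31.2, 36.0 and 41.0 FPKM in controls, and the groups overlapped across most of their range (log2 -0.10, interval -0.39 to 0.19, limma adjusted p = 0.867). The ratio of RRM2 to RRM1 within an animal was 0.153, 0.102, 0.116 and 0.205 in NE-Infused animals and 0.261, 0.247, 0.181 and 0.191 in controls. NE-Infused 4 was the 1 NE-Infused animal inside the control range of this ratio. TK1, the cytosolic thymidine kinase of the salvage pathway, stood at 3.62, 2.85, 3.25 and 7.86 FPKM in NE-Infused animals and at 4.45, 5.87, 2.69 and 5.55 FPKM in controls. Its highest value of all 8 animals was in NE-Infused 4, and its difference was -0.11 (interval -0.79 to 0.57, limma adjusted p = 0.940), the widest interval in the set.

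**Figure D2:**
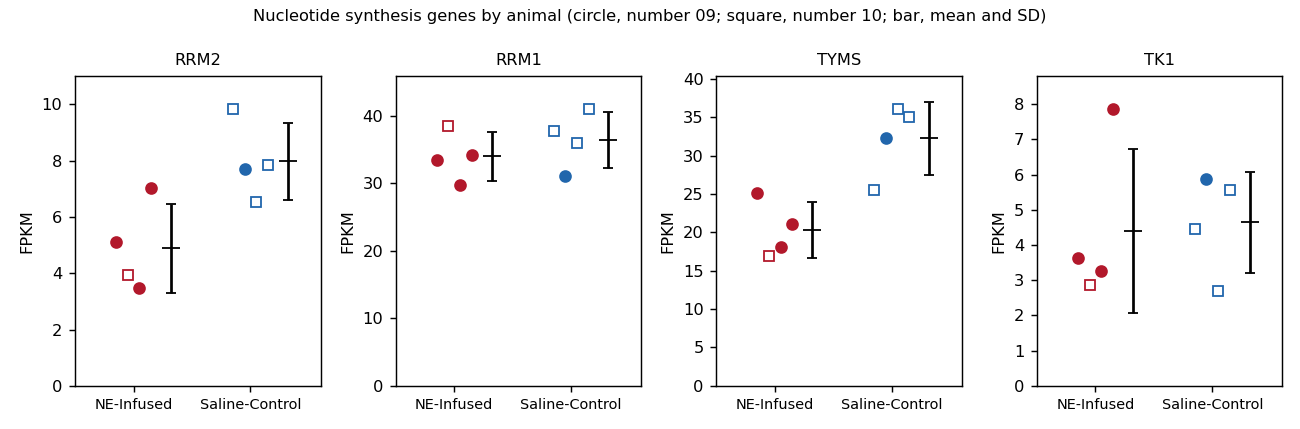
FPKM of RRM2, RRM1, TYMS and TK1 in each animal, NE-Infused left of Saline-Control; circles are animals numbered 09, squares animals numbered 10, bars the mean and SD of 4 animals. TYMS runs from 16.9 to 25.2 in NE-Infused animals and from 25.6 to 36.1 in controls, and TK1 spans both groups.

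Markers of exocrine cells were more abundant in 3 of the 4 NE-Infused libraries. All 6 tested acinar markers had higher means in NE-Infused animals and 0 passed after adjustment (lowest limma adjusted p = 0.352), 0 of 9 listed were at 0 in all animals, and their summed level was 559, 130, 904 and 359 FPKM in NE-Infused animals 1 to 4, against 111 to 149 FPKM in controls. Duct markers summed to 163 to 432 FPKM in NE-Infused animals and 103 to 192 FPKM in controls, with 3 of 4 tested markers higher. NE-Infused 2 had acinar and duct sums inside the control range, but 2 of its 6 tested acinar markers lay above every control. These were the carboxypeptidase CPB1, at 58.4 FPKM against 15.5 to 39.0 FPKM in controls, and the elastase CELA1, at 14.0 FPKM against 3.82 to 10.3 FPKM in controls, both named after their values were seen. The other tested acinar markers, CPA1, CEL, CTRC and CLPS, lay below every control in NE-Infused 2. They stood at 40.2, 7.46, 0.370 and 9.08 FPKM, against lowest control values of 47.2, 11.7, 0.448 and 14.9 FPKM. NE-Infused 2 had the lowest TYMS of the 8 animals and an RRM2 of 3.92 FPKM, below every control. The part of exocrine content in the TYMS and RRM2 values was not tested.

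The wider list of nucleotide supply genes held no gene at this level. Of 24 genes on that list, 18 were tested: 0 had an unadjusted p under 0.05, 12 had higher and 6 lower means, and the median was 0.04. DCK, the deoxycytidine kinase of the salvage pathway, averaged 9.65 ± 1.64 FPKM with norepinephrine and 11.9 ± 0.557 FPKM in controls (log2 -0.29, limma adjusted p = 0.681). ATIC, which closes the purine ring, averaged 37.2 ± 5.63 FPKM with norepinephrine and 30.5 ± 2.06 FPKM in controls (log2 0.27, limma adjusted p = 0.681). RRM2B, the p53-inducible small subunit of ribonucleotide reductase, averaged 3.48 ± 0.419 FPKM with norepinephrine and 5.41 ± 2.05 FPKM in controls (log2 -0.45, limma adjusted p = 0.725). The most abundant were IMPDH2, of guanine nucleotide synthesis, at 177.9 ± 27.2 FPKM with norepinephrine and 164.7 ± 27.4 FPKM in controls, and SHMT2, of one-carbon supply, at 70.0 ± 17.5 and 61.4 ± 13.5 FPKM. The IMPDH2 difference turned negative with equal library totals, and both it and that of SHMT2 were negative within each number group.

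The highest licensing values lay in 1 NE-Infused animal. NE-Infused 4 had the highest value of all 8 animals in 8 of the 10 licensing genes and in 13 of the 32 members with a row, and it was never the lowest. The mean licensing level in log2(FPKM + 1) was 4.22 in NE-Infused 4, 3.55 to 3.71 in the other NE-Infused animals and 3.63 to 3.86 in controls. Without NE-Infused 4 the licensing median was -0.17, and 23 of 31 members had lower means. NE-Infused 4 was the youngest fetus, at 137 days, and its mesenchymal markers summed to 3813 FPKM, against 1382 to 2419 FPKM in the other NE-Infused animals and 2035 to 3036 FPKM in controls. The part of age and mesenchymal content in these values was not tested.

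The MCM subunits, which form the helicase ring, show this pattern. MCM5 stood at 14.8, 17.5, 15.3 and 31.1 FPKM in NE-Infused animals 1 to 4, and at 20.0, 20.2, 15.4 and 18.9 FPKM in controls 1 to 4. Apart from NE-Infused 4 the 7 animals lay between 14.8 and 20.2 FPKM. MCM4 ran from 12.5 to 24.7 FPKM in NE-Infused animals and from 13.2 to 21.4 FPKM in controls, MCM3 from 11.3 to 21.2 FPKM in NE-Infused animals and from 14.5 to 18.1 FPKM in controls. Both were highest in NE-Infused 4 and lowest in NE-Infused 3. MCM6 averaged 29.0 ± 4.53 FPKM with norepinephrine and 29.1 ± 3.59 FPKM in controls. MCM7 was the most abundant subunit, at 82.9, 74.7, 79.0 and 110.8 FPKM in NE-Infused animals and 86.8, 88.6, 78.2 and 91.1 FPKM in controls (log2 -0.00, interval -0.32 to 0.32). The MCM7 row shares its locus with the microRNA rows oar-mir-106b and oar-mir-25.

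Among the members, the loaders were less abundant than the ring. ORC4, a subunit of the origin recognition complex outside the members, was more abundant than MCM3, MCM4 and MCM5. It averaged 30.0 ± 3.28 FPKM with norepinephrine and 26.5 ± 1.44 FPKM in controls. ORC1, the large subunit of the origin recognition complex, averaged 1.64 ± 0.801 FPKM with norepinephrine and 1.73 ± 0.434 FPKM in controls, and CDC6, the ATPase that joins it, 1.63 ± 0.929 FPKM with norepinephrine and 1.63 ± 0.299 FPKM in controls. In both genes NE-Infused 4 was the highest animal and NE-Infused 2 the lowest. ORC6, the small subunit of the complex, averaged 6.65 ± 1.49 and 6.32 ± 0.900 FPKM in NE-Infused animals and controls. CDT1, which brings the ring to the origin, stood at 13.1, 10.3, 10.5 and 16.1 FPKM in NE-Infused animals and at 10.4, 16.3, 9.54 and 10.2 FPKM in controls, with Saline-Control 2 far from the other controls. The CDT1 row shares its listed locus with APRT, so its value may hold reads of that gene. GMNN, the inhibitor of CDT1, stood at 20.0, 15.4, 30.1 and 30.2 FPKM in NE-Infused animals and at 17.7, 20.4, 16.1 and 19.1 FPKM in controls. The GMNN difference of 0.32 was the highest among members and did not pass (interval -0.17 to 0.81, limma adjusted p = 0.769), and it was 0.35 in 09 and -0.19 in 10. The ratio of CDT1 to GMNN was 0.551 ± 0.148 in NE-Infused animals and 0.628 ± 0.117 in controls, with overlap.

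**Figure D3:**
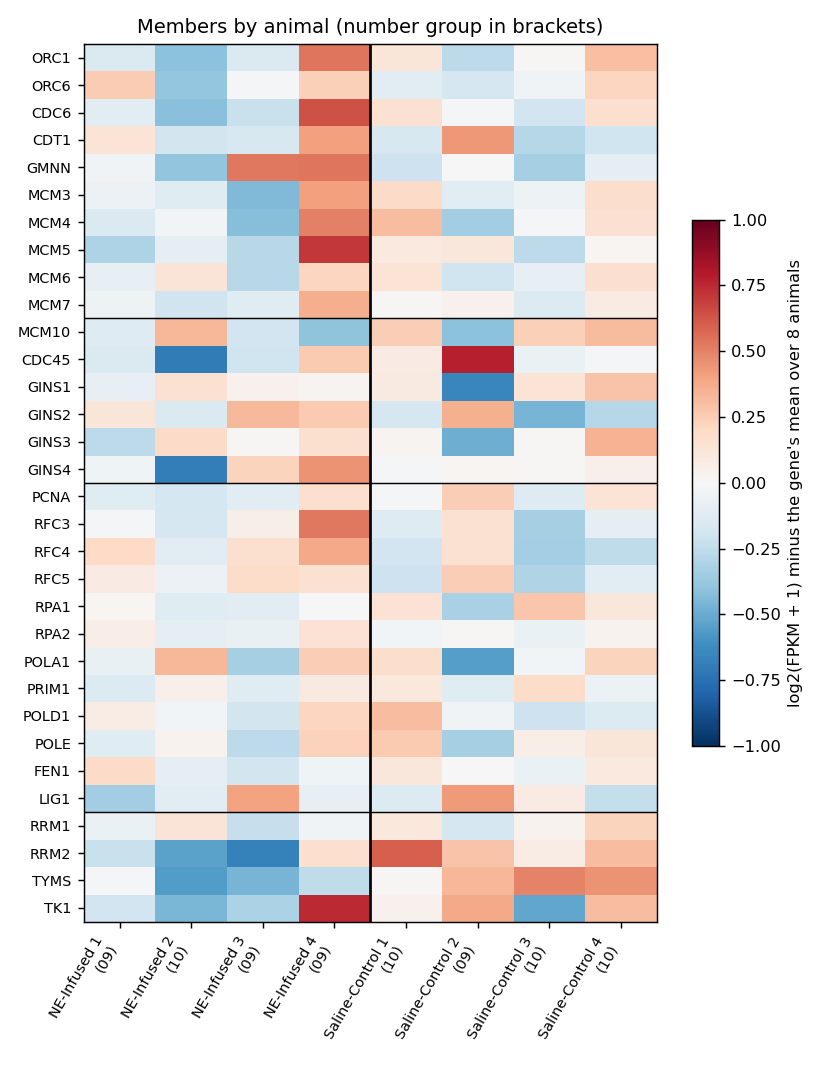
Each of the 32 members with a row (rows, grouped by role) in each animal (columns, NE-Infused left of the line, number group in brackets); colour is log2(FPKM + 1) minus the gene's mean over the 8 animals. NE-Infused 4 is high across the licensing block, and TYMS and RRM2 are low in NE-Infused 2 and 3.

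Helicase activation genes varied with the number groups as well. CDC45, which joins the ring to start unwinding, stood at 2.55, 1.42, 2.43 and 3.72 FPKM in NE-Infused animals 1 to 4, and at 3.15, 5.75, 2.74 and 2.89 FPKM in controls 1 to 4. Saline-Control 2 was the highest and NE-Infused 2 the lowest, and the groups overlapped through NE-Infused 4. The CDC45 difference was -0.39 (interval -0.98 to 0.21, limma adjusted p = 0.769). It was -0.81 in 09 and -0.70 in 10, and with the number prefix in the model it was -0.75 (limma adjusted p = 0.309). CDC45 shares its listed locus with 14 other rows. MCM10, a scaffold of the early fork, averaged 6.71 ± 1.75 FPKM with norepinephrine and 7.84 ± 1.83 FPKM in controls. GINS1 averaged 9.23 ± 0.686 FPKM with norepinephrine and 9.02 ± 2.54 FPKM in controls, and GINS3 averaged 2.11 ± 0.426 and 2.03 ± 0.692 FPKM; both differences turned negative with equal library totals. GINS2 averaged 11.8 ± 1.76 FPKM with norepinephrine and 9.73 ± 2.83 FPKM in controls, and GINS4 2.23 ± 0.999 and 2.18 ± 0.0616 FPKM.

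Between number groups, with treatment in the model, 3 of 31 members (9.68%) passed a limma adjusted p of 0.05, beside 16.5% of all tested genes (6.06% higher and 10.4% lower in 10). MCM10 was higher in animals numbered 10, with means of 8.86 FPKM in 10 and 5.69 FPKM in 09 (log2 0.62, adjusted p = 0.0214). CDC45 was lower in 10, at 2.55 FPKM in 10 and 3.61 FPKM in 09 (log2 -0.73, adjusted p = 0.0327), as was GINS2, at 8.64 FPKM in 10 and 12.9 FPKM in 09 (log2 -0.52, adjusted p = 0.0394). The 3 genes thus differed in direction between number groups.

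At the fork, PCNA was the most abundant member of the whole set. This sliding clamp (chromosome 13, 46615171 to 46619285) stood at 88.2, 85.0, 88.6 and 107.9 FPKM in NE-Infused animals 1 to 4, and at 94.8, 114.1, 87.6 and 105.4 FPKM in controls 1 to 4. NE-Infused 1, 2 and 3 lay close together at the low end of controls and NE-Infused 4 lay near their top. The PCNA difference was -0.12 (interval -0.41 to 0.18, limma adjusted p = 0.834), -0.27 in 09 and -0.17 in 10. The clamp loader subunits RFC3, RFC4 and RFC5 all had higher means, with differences of 0.20, 0.31 and 0.18, and none passed (limma adjusted p 0.806, 0.695 and 0.777). RFC4 stood at 15.4, 12.1, 14.9 and 17.5 FPKM in NE-Infused animals and at 11.5, 14.8, 10.3 and 10.96 FPKM in controls, where Saline-Control 2, the 1 control numbered 09, was the animal that overlapped. Without Saline-Control 2 the groups of RFC4, RFC5 and GINS2 did not overlap, and their limma unadjusted p was under 0.05. Within the number groups, the difference was 0.04 in 09 and 0.02 in 10 for RFC3, 0.10 and 0.14 for RFC4, and -0.10 and 0.15 for RFC5. With the number prefix in the model the 3 differences were 0.03, 0.12 and 0.02, and with gestational age they turned negative, at -0.22, -0.03 and -0.01.

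The single-strand binding proteins and polymerases differed in how far they varied between animals. RPA2 ran from 21.8 to 25.7 FPKM in NE-Infused animals and from 22.1 to 23.8 FPKM in controls, the narrowest span of any member with a highest value 1.18 times the lowest. RPA1, its large partner, averaged 38.5 ± 1.96 FPKM with norepinephrine and 41.9 ± 7.18 FPKM in controls. PRIM1, the catalytic subunit of primase, averaged 10.3 ± 0.895 FPKM with norepinephrine and 10.8 ± 1.146 FPKM in controls. POLA1, the initiating polymerase, averaged 5.01 ± 1.23 and 4.69 ± 1.26 FPKM, and POLD1, of the lagging strand, 4.27 ± 0.604 and 4.16 ± 0.865 FPKM, NE-Infused before control; both differences turned negative with equal library totals, and both genes share listed loci with other rows. POLE, of the leading strand, was low, at 0.413 to 0.988 FPKM in NE-Infused animals and 0.348 to 1.03 FPKM in controls, and without the minimum its limma adjusted p was 0.937. FEN1, the flap nuclease, averaged 8.92 ± 1.13 FPKM with norepinephrine and 9.37 ± 0.602 FPKM in controls, and LIG1, the ligase that seals fragments, 16.6 ± 4.07 and 17.4 ± 3.93 FPKM. The span between animals was widest for CDC45, 4.04 times from lowest to highest.

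The other replication genes, from lists drawn up for this comparison, also held no gene past the threshold. Of 13 further licensing and activation genes 10 were tested, 5 with higher and 5 with lower means and a median of 0.01. At an unadjusted p under 0.05 limma called 1 of them (10.0%), beside 7.36% of all tested genes. The 1 gene at an unadjusted p under 0.05 was ORC5, a subunit of the origin recognition complex, at 8.62, 11.9, 11.2 and 11.8 FPKM in NE-Infused animals and 15.7, 16.6, 11.5 and 17.6 FPKM in controls (log2 -0.45, limma adjusted p = 0.597). Only Saline-Control 3 lay within the NE-Infused range of ORC5. MCMBP, which binds the MCM ring, at 41.8 ± 3.27 FPKM with norepinephrine and 39.1 ± 4.73 FPKM in controls, was the most abundant of these, and its difference turned negative with equal library totals. WDHD1, an adaptor between helicase and polymerase alpha, averaged 4.21 ± 0.933 and 5.63 ± 1.34 FPKM, NE-Infused before control (limma adjusted p = 0.747). Of 22 further polymerase and fork genes 17 were tested, with 0 at an unadjusted p under 0.05 and a median of -0.05. POLD4, an accessory subunit of polymerase delta, averaged 20.3 ± 3.57 FPKM with norepinephrine and 24.9 ± 3.51 FPKM in controls, and RPA3 54.7 ± 12.3 and 42.0 ± 13.2 FPKM (limma adjusted p 0.706 and 0.725).

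Proliferation and mitosis markers in the same libraries had lower means after norepinephrine in 19 of 20 cases. Of 20 tested markers 16 (80.0%) had a limma unadjusted p under 0.05, all of them lower in NE-Infused animals, beside 3.74% of all tested genes in that direction, and 0 passed after adjustment (lowest adjusted p = 0.397). The list was already known to be low in these animals, and 3 of its 20 genes had a mean under 1 FPKM in NE-Infused animals and passed the minimum only through controls. MKI67, the antigen Ki-67, stood at 0.811, 0.529, 0.578 and 0.819 FPKM in NE-Infused animals 1 to 4, and at 2.04, 1.65, 1.54 and 1.56 FPKM in controls 1 to 4 (log2 -0.68, limma adjusted p = 0.503). CCNA2, cyclin A2 of S phase and G2, stood at 3.15, 2.12, 1.66 and 3.90 FPKM in NE-Infused animals and at 6.91, 5.48, 4.44 and 4.49 FPKM in controls (log2 -0.80, limma adjusted p = 0.523). Neither gene overlapped between groups. The mean level of the 20 markers in log2(FPKM + 1) ran from 1.51 to 1.93 in NE-Infused animals and from 2.28 to 2.62 in controls, while that of the 31 replication genes ran from 3.45 to 3.86 in NE-Infused animals and from 3.54 to 3.70 in controls.

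**Figure D4:**
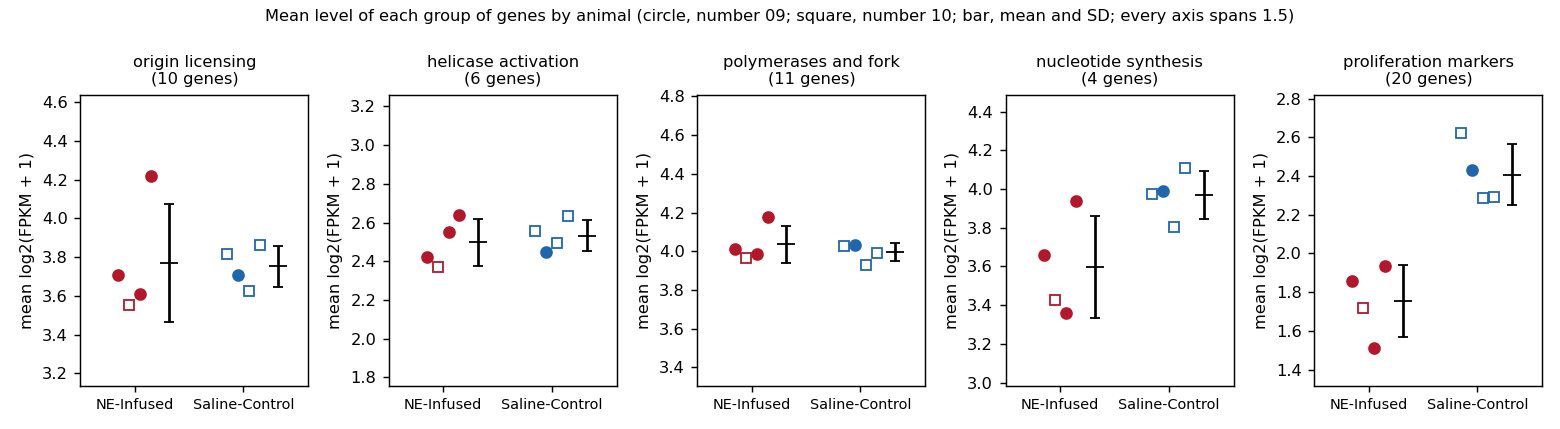
Mean log2(FPKM + 1) per animal for the 4 roles and for 20 proliferation markers, NE-Infused left of Saline-Control; circles are animals numbered 09, squares animals numbered 10, bars the mean and SD of 4 animals. The groups are apart for the proliferation markers, overlap through NE-Infused 4 for nucleotide synthesis, and overlap for the other 3 roles.

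Set against PCNA in the same animal, MKI67 was lower in every NE-Infused animal than in any control. The ratio of MKI67 to PCNA was 0.00920, 0.00622, 0.00652 and 0.00759 in NE-Infused animals 1 to 4, against 0.0215, 0.0145, 0.0176 and 0.0148 in controls 1 to 4. The ratio of MKI67 to MCM7 averaged 0.00789 ± 0.00127 in NE-Infused animals and 0.0198 ± 0.00272 in controls. Neither ratio overlapped between groups. MKI67 itself reached at most 0.819 FPKM in NE-Infused animals and at least 1.54 FPKM in controls. From lowest to highest animal PCNA spanned 1.34 times and MCM7 1.48 times, less than that gap. Neither ratio could therefore have overlapped, and both restate the separation of MKI67. MKI67 averaged 0.684 ± 0.153 FPKM in NE-Infused animals, so it is one of the 3 markers that passed the minimum through controls, and its low level was known beforehand; the ratios are given as a description. G1-S regulators, the cyclins, kinases and E2F factors upstream of replication, were tested in 17 of 21 cases. Of these 13 (76.5%) had lower means, beside 47.4% of all tested genes, and the median was -0.14. None passed after adjustment (lowest limma adjusted p = 0.597). An unadjusted limma p under 0.05 was found for 1 gene (5.88%), beside 7.36% of all tested genes. That was CCND3, cyclin D3, at 26.1 ± 7.97 FPKM with norepinephrine and 39.2 ± 7.36 FPKM in controls. CCNE1 and CCNE2, the cyclins of S-phase entry, averaged 3.76 ± 0.687 and 1.63 ± 0.399 FPKM with norepinephrine and 4.26 ± 0.509 and 2.25 ± 0.703 FPKM in controls. CDK1, CCNB1 and E2F1 are not listed under these symbols and were not analysed here.

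MKI67 split the animals into 2 separate clusters, so no correlation over the 8 animals is given. Deviations from the group means were compared instead, with an exact permutation test over the 576 pairings within groups, for each of 31 members. Pearson's r with MKI67 ran from -0.39 for LIG1 to 0.89 for POLD1, with a median of 0.43 and 26 positive values. For RRM2 r was 0.86 and Spearman's rho 0.88 (exact permutation p = 0.0295 and 0.0243, adjusted p = 0.457 and 0.377 over 31 members). POLD1 had a rho of 0.86 (exact permutation p = 0.0139 for r and 0.0156 for rho, adjusted p = 0.431 and 0.377). The POLD1 row shares its listed locus with 10 other rows, MYH14 and NR1H2 among them, so its value may hold reads of neighbours. Without the 2 animals farthest from the median of the MKI67 deviations, r was 0.76 for RRM2 and 0.69 for POLD1, and 20 of the 31 values were positive. For TYMS r was 0.046 and rho 0.048 (exact permutation p = 0.931 and 0.944, adjusted p = 0.931 and 0.944), and r was 0.77 without the 2 farthest animals. None of the 31 passed, and all values of an animal share its library and depth. The lowest exact permutation p that 576 pairings can give is 0.00174, which is an adjusted p of 0.0538 for 1 member alone. A single member could therefore not pass by itself, whatever its correlation. With CCNA2, chosen after its values were seen, RRM2 had an r of 0.95 and a rho of 0.95 (exact permutation p = 0.00521 and 0.00694, adjusted p = 0.0807 and 0.108), and 0.89 without the 2 farthest animals. POLD1 had the lowest p with CCNA2, at an r of 0.91 and a rho of 0.90 (exact permutation p = 0.00174 and 0.00347, adjusted p = 0.0538 and 0.108). Number groups hold 4 animals each, too few for a correlation within them.

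**Figure D5:**
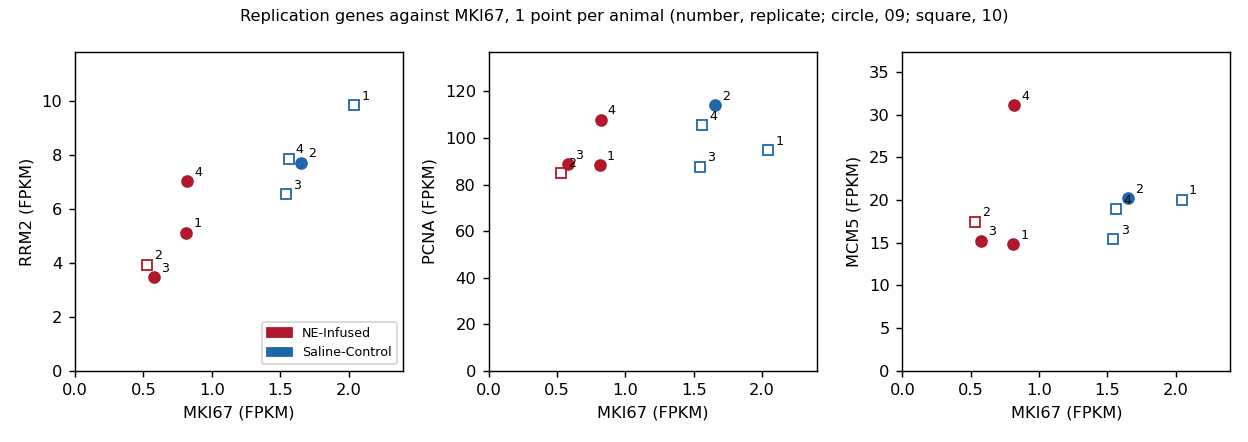
RRM2, PCNA and MCM5 (FPKM, vertical axes) against MKI67 (FPKM, horizontal axis) in each animal; colours are the groups, circles animals numbered 09, squares animals numbered 10, and digits the replicate. NE-Infused animals reach at most 0.819 FPKM of MKI67 and controls start at 1.54, RRM2 is higher towards the right, and PCNA and MCM5 overlap between the groups, with NE-Infused 4 the highest in MCM5.

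Gestational age was lower in the NE-Infused group. With age in the model 26 of 31 members had a lower estimate for NE-Infused animals, the licensing median was -0.36 and that of nucleotide synthesis -0.86. The median of all tested genes was -0.04 in this model. The members at a limma unadjusted p under 0.05 were then 6: TYMS, RRM2, CDC45, TK1, CDT1 and PCNA, all lower, with 0.495 as the lowest adjusted p. The shares of all tested genes that were lower or called in this model are not given here. Ages of 137 and 138 days occurred in NE-Infused animals only and 140 days in controls only, so age and treatment cannot be told apart outside day 139.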

How the data were processed

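RNA of hand-picked islets was selected for mRNA and sequenced as paired reads of 100 bp from TruSeq libraries, per the labels' protocols. Per the submitters' processing notes, TopHat2 2.0.1, Cufflinks 2.1.1 and Cuffdiff were used with Oar_v3.1; neither the annotation nor the use of strand is stated. FPKM values deposited by the authors fill 1 column for each of the 8 animals, with no counts, so intervals cover the spread between animals only. Coordinates are those of the table with the start raised by 1. The labels give each animal its own number, weight and age.

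Values were analysed as log2(FPKM + 1), which understates changes of low genes. Rows with a mean of at least 1 FPKM were fitted together in limma 3.58.1 (R 4.3.3; intensity trend, two-sided, Benjamini-Hochberg over 13252 genes, threshold 0.05), tested on simulated data. Members and lists were chosen with earlier results of these data known. The rule for named genes took every member, fixed markers, and from each list the 2 most abundant genes and the 3 with the lowest p; not all are printed. CCNA2 was added as a partner after the data were seen.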

Additional observations from a re-analysis of the deposited data

Results flagged for a closer look

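In 64 groups of 4 animals (32 genes in 2 groups), 6 had 1 animal far from the other 3, with a gap to the nearest animal above Dixon's critical share of the group's range. Chance flags about 1 in 20 groups. NE-Infused 4 was far above the other NE-Infused animals in MCM5 (31.1 FPKM, others 14.8 to 17.5), PCNA (107.9 FPKM, others 85.0 to 88.6) and TK1 (7.86 FPKM, others 2.85 to 3.62). Saline-Control 2, the control numbered 09, was far above the other controls in CDT1 (16.3 FPKM, others 9.54 to 10.4) and CDC45 (5.75 FPKM, others 2.74 to 3.15), and far below them in MCM10 (5.11 FPKM, others 8.56 to 9.08).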

How the results depend on the processing

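No member passed the adjusted threshold under any of the 19 alternatives, and TYMS stayed lower in NE-Infused animals at an unadjusted limma p under 0.05 in all of them, RRM2 in all but male fetuses only. With a minimum mean of 5 FPKM the polymerase and fork median was -0.057 and the nucleotide synthesis median -0.63. With equal library totals 1 gene passed of all tested, 2 members did not overlap, the helicase activation and fork medians were both -0.12, and 8 members changed sign. By the median of ratios 2 members did not overlap. With the number prefix as a covariate 1 gene passed and 1552 had an unadjusted p under 0.05. With gestational age 6 members did, and the medians were -0.36 for licensing, 0.12 for helicase activation, -0.063 for the fork and -0.86 for nucleotide synthesis. The median of all tested genes was then -0.04, and the share of them called is not given here. With male fetuses only 1 gene passed, 1619 had an unadjusted p under 0.05, 5 members did not overlap and the helicase activation median was -0.13. Smaller groups separate more easily, and the share of all tested genes without overlap in males is not given here. The cause was not tested in any of these. Correlations with MKI67 passed for 0 members on deviations from the group means, where 1 member alone could not pass. Without the 2 farthest animals only r is given, with no test. The planned correlation over all 8 animals is left out because MKI67 separates the groups. CDK1 and CCNB1 as partners were not run.

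Leaving out 1 animal at a time gave 0 to 2 genes past the threshold, 0 members, 595 to 2201 genes and 2 to 5 members at an unadjusted p under 0.05, and 1 to 5 members without overlap. The share of all tested genes without overlap at each omission is not given here. Lower means were found for 13 to 23 members. Medians ran from -0.10 to 0.04 for members, -0.17 to 0.07 for licensing, -0.12 to 0.077 for helicase activation, -0.03 to 0.05 for the fork and -0.52 to -0.28 for nucleotide synthesis.

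With the replicate number as a block, 646 genes and 2 members had an unadjusted p under 0.05, and 0 passed. Deviations of same-numbered animals correlated at -0.156, -0.381, -0.034 and 0.093, so the numbers did not pair the animals.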
